A study of Mus musculus with 24 samples.

Results

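Fatty acid synthesis and its regulators were described in mouse liver through 10 genes: Srebf1, Mlxipl and Thrsp on the side of control, Acly, Acaca, Fasn, Elovl6, Scd1 and Me1 among the enzymes, and Pnpla3. They were taken by symbol from the 18820 genes that the arrays measured under a single name, with the brightest probe set standing for a gene. The series compared FXR-/- and wild-type mice, with and without obeticholic acid (OCA, also called INT-747), an agonist derived from a bile acid that activates the nuclear receptor FXR, the product of the gene Nr1h4. All animals were male C57BL/6 mice aged 9 to 12 weeks, fed chow freely, and each of the 24 livers was hybridised to 1 array. There were 4 groups of 6: FXR-/- mice given OCA at 10 mg/kg/day by oral gavage for 7 days, FXR-/- mice given the 1% methyl cellulose vehicle in the same way, wild-type mice given OCA, and wild-type mice given vehicle. The knockout is not described as limited to the liver, and the sources used here do not give the feeding state when the livers were taken.

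In de novo lipogenesis the liver turns surplus carbohydrate into fat. ATP citrate lyase (Acly) releases acetyl-CoA from citrate, acetyl-CoA carboxylase (Acaca) makes malonyl-CoA, and fatty acid synthase (Fasn) builds palmitate with NADPH that malic enzyme (Me1) helps to supply. Elovl6 then lengthens palmitate, and Scd1 places a double bond in the product. The pathway is controlled mainly through transcription, by SREBP-1c (from Srebf1), which acts downstream of insulin and of the oxysterol receptor LXR, and by ChREBP (from Mlxipl), which responds to glucose metabolites. Thrsp (Spot 14) is a nuclear protein induced with the pathway by thyroid hormone and carbohydrate, and Pnpla3, a lipid droplet protein, is a target of the same regulators. FXR is known to lower Srebf1 expression in mouse liver through the repressor SHP (Nr0b2).

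Promoter windows are shown as examples with motif matches from both directions of change: Fasn and Pnpla3, 2 of the 5 genes higher in FXR-/- liver under vehicle, and Thrsp, Srebf1 and Mlxipl, the 3 lower ones. RefSeq, on build GRCm38.p6, listed windows for 9 of the 10 genes, and Scd1 was not among them. Srebf1 had 3 windows, of which 1 is shown. Each run below is the 250 bases before a listed start of transcription, 5′ to 3′, and the capitals mark matches to 3 motifs searched on both strands: a sterol regulatory element written as TCACNCCAC, the E-box CACGTG, and the CCAAT box.
Fasn, chr11:120824548-120824797, minus strand: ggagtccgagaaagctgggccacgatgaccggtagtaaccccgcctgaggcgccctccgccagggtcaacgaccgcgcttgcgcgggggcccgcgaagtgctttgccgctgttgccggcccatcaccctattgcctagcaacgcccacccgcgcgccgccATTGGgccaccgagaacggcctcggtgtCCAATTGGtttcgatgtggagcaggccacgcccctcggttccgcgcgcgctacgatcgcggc
Thrsp, chr7:97417551-97417800, minus strand: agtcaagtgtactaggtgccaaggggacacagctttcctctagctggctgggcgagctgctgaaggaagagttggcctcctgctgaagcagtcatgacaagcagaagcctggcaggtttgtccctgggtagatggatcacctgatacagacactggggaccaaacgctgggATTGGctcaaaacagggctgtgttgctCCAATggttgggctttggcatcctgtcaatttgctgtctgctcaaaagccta
Pnpla3, chr15:84167566-84167815, plus strand: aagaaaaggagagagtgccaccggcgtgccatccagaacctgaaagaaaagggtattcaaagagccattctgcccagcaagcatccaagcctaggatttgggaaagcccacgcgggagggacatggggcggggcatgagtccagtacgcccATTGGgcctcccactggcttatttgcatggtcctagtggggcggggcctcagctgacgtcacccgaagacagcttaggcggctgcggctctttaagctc
Srebf1, chr11:60210472-60210721, minus strand: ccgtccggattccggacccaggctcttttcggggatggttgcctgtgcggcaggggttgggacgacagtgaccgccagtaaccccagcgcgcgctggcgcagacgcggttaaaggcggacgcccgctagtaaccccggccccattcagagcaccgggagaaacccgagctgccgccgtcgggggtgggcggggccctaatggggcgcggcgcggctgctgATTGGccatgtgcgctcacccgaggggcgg
Mlxipl, chr5:135089640-135089889, plus strand: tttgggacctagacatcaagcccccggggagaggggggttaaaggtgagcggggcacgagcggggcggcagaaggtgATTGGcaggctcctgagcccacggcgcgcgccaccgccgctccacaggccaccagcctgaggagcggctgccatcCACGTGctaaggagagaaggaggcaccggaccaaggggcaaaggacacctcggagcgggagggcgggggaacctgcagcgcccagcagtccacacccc
Mlxipl, chr5:135106641-135106890, plus strand: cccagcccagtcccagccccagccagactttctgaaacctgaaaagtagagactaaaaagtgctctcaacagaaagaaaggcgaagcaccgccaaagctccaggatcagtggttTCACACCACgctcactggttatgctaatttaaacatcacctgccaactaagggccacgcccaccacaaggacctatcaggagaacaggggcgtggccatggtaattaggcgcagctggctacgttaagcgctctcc
Fasn held 3 CCAAT matches, 2 of which overlap on opposite strands in the run CCAATTGG, and their first letters lay 90, 62 and 59 bases before the start. Thrsp held 2, at 79 and 52 bases, and Pnpla3 held 1 at 99 bases. Mlxipl was the only member with a match to the sterol element, in 1 of its 2 windows, and the only one with an E-box match, in the other. Of the windows not shown, those of Acaca, Acly and Elovl6 held no match, Me1 held 1 CCAAT match in 1 of its 2 windows, and Srebf1 held 1 in 1 of its other 2. Over the 13 member windows, CCAAT matches lay in 7, from 6 genes. Among all 32851 windows of the same length in the table, 33.8% held CCAAT, 6.02% held CACGTG and 1.05% held TCACNCCAC. These matches describe letters in the windows, and binding was not measured.

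Hybridisation signals are log2 values normalised by the submitters with RMA, so a difference of 1 is a doubling, and levels are compared only within a gene. Array medians lay between 4.57 and 4.65. Hepatocyte markers such as Alb and Apob were bright throughout: the mean of 8 of them ranged from 12.41 to 12.82 over the 24 arrays. Nr0b2, which FXR induces directly, averaged 4.17 ± 0.50 in FXR-/- OCA livers, 3.97 ± 0.48 in FXR-/- vehicle livers, 8.00 ± 0.43 in wild-type OCA livers and 6.59 ± 0.51 in wild-type vehicle livers (SD, n = 6 each). Of the wild-type vehicle arrays, replicate 6 stood apart, with 532 genes more than 2-fold from the mean of its 5 group mates, against 2 to 90 genes for any other array. The array names also carry a code number whose meaning is not given: number 9 covers all FXR-/- OCA arrays and 2 FXR-/- vehicle arrays, number 7 covers 4 arrays of each vehicle group, and number 5 covers all wild-type OCA arrays and 2 wild-type vehicle arrays, replicate 6 among them. Differences were tested with limma on all 18820 genes and are called at a Benjamini-Hochberg adjusted p below 0.05.

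Without OCA, loss of FXR went with higher signals of most enzymes and lower signals of their regulators. In FXR-/- vehicle livers against wild-type vehicle livers, 5 of the 10 genes rose (Fasn, Acaca, Elovl6, Me1 and Pnpla3) and 3 fell (Thrsp, Srebf1 and Mlxipl), while Acly and Scd1 did not pass the test. Over all genes 15.4% were called higher and 12.1% lower in this comparison, so a call by itself was common. The median change of the 10 genes was 0.26 on the log2 scale, beside a median of -0.03 over all genes tested. In bulk tissue, fewer cells of a type and less RNA per cell cannot be told apart.

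**Figure D1:**
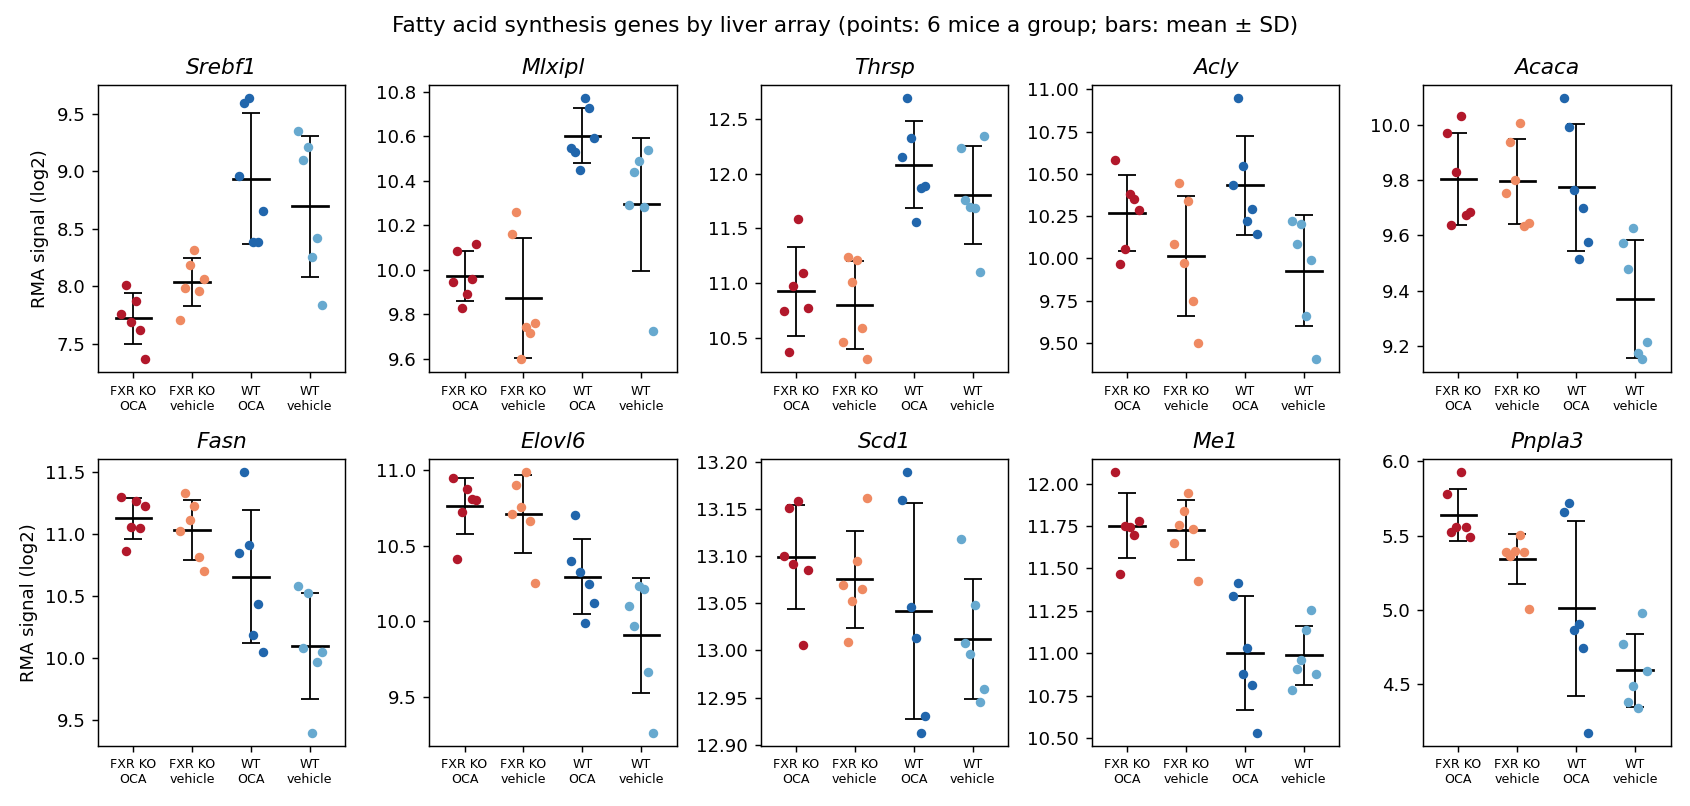
Log2 hybridisation signal of each of the 10 genes in every liver, 1 panel a gene with its own y axis; points are single arrays (1 mouse each), bars are group means ± SD, and the groups run from FXR-/- OCA and FXR-/- vehicle to wild-type OCA and wild-type vehicle. All 12 FXR-/- arrays lie above all 12 wild-type arrays for Me1 (lowest 11.43 against highest 11.42), and the Srebf1 panel shows a wider scatter in wild-type livers.

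Srebf1 encodes the precursor of SREBP-1, and the signal of its single probe set is given here for the gene, not for a transcript. It ran from 7.70 through a median of 8.02 to 8.32 in FXR-/- vehicle livers, against 7.83, 8.76 and 9.35 in wild-type vehicle livers. The wild-type values were the more scattered (SD 0.21 in FXR-/- livers against 0.61 in wild-type livers), the ranges overlapped, and only 1 FXR-/- array lay below every wild-type one. Srebf1 fell by 0.66 ± 0.24 (SE, limma adjusted p = 0.0384). This call was the least steady: leaving out 1 array at a time lifted the adjusted p above 0.05 in 7 of 12 fits, with wild-type replicates 1, 2 or 3 or FXR-/- replicates 1, 2, 5 or 6 left out, and in those 7 fits the change lay between -0.67 and -0.53.

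Under OCA the Srebf1 groups separated. FXR-/- OCA livers held 7.37, 7.72 and 8.01 (lowest, median, highest), against 8.38, 8.81 and 9.64 in wild-type OCA livers. Every FXR-/- value lay below every wild-type one, and the gene fell by 1.22 ± 0.24 (limma adjusted p = 2.31e-04), which is 2.33-fold.

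Mlxipl, the gene of ChREBP, fell in FXR-/- liver under both treatments. Under vehicle its FXR-/- signals ran from 9.60 through 9.75 to 10.26, against 9.72, 10.37 and 10.54 in wild-type livers. The lowest wild-type value came from replicate 6, and the next was 10.28, above all FXR-/- values. The change was -0.42 ± 0.12 (limma adjusted p = 0.00924). Under OCA the values were tight in both genotypes, 9.83, 9.95 and 10.12 in FXR-/- livers against 10.45, 10.57 and 10.77 in wild-type livers. The groups did not overlap, and Mlxipl fell by 0.63 ± 0.12 (limma adjusted p = 1.82e-04).

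Thrsp showed the largest drop of the set under vehicle. Its FXR-/- signals were 10.30, 10.80 and 11.24 (lowest, median, highest), against 11.10, 11.73 and 12.35 in wild-type livers, and 4 of 6 FXR-/- arrays lay below all wild-type ones. The fall was 1.00 ± 0.22, or 2.00-fold (limma adjusted p = 9.85e-04). Under OCA, FXR-/- livers held 10.37, 10.88 and 11.59 and wild-type livers 11.56, 12.02 and 12.69. A single FXR-/- array reached into the wild-type range, and the fall was 1.16 ± 0.22 (limma adjusted p = 1.82e-04).

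Of the 6 enzymes, Fasn, Acaca, Elovl6 and Me1 rose in FXR-/- vehicle livers, and Acly and Scd1 did not pass. Fasn, which carries out the whole series of condensations that yields palmitate, had 10.70, 11.07 and 11.33 in FXR-/- vehicle livers, against 9.40, 10.06 and 10.58 in wild-type vehicle livers. The groups did not overlap and Fasn rose by 0.94 ± 0.20, or 1.92-fold (limma adjusted p = 7.30e-04). Under OCA the FXR-/- livers were at 10.86, 11.14 and 11.30, but wild-type livers spread over 10.05, 10.64 and 11.51. The wild-type range enclosed the FXR-/- one, and the difference of 0.47 ± 0.20 did not pass the test (limma adjusted p = 0.0767; 95% interval 0.06 to 0.88). Leaving out 1 array at a time moved this difference between 0.35 and 0.64. The top of that range, reached without wild-type OCA replicate 2, the highest wild-type array, passed (limma adjusted p = 0.00812). Blocking by code number instead lowered the difference to 0.12 (limma adjusted p = 0.913), and to 0.083 when wild-type vehicle replicate 6 was also left out. In such a block the OCA groups are linked only through vehicle arrays.

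Acaca, whose malonyl-CoA is both the building block of the chain and a brake on fat burning, had 9.63, 9.78 and 10.01 in FXR-/- vehicle livers and 9.15, 9.35 and 9.63 in wild-type vehicle livers. The lowest FXR-/- value, 9.632, lay just above the highest wild-type one, 9.625, and the rise was 0.43 ± 0.11 (limma adjusted p = 0.00366). Within code number 7, the 4 FXR-/- against 4 wild-type vehicle arrays gave a change of 0.31 that did not pass (limma adjusted p = 0.0878). Under OCA both genotypes were at the same height: 9.64, 9.76 and 10.03 in FXR-/- livers against 9.52, 9.73 and 10.10 in wild-type livers. The difference there was 0.03 with a 95% interval from -0.19 to 0.25. A second probe set of Acaca gave group means of 9.41 in FXR-/- vehicle livers and 9.02 in wild-type vehicle livers, a gap of like size.

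Elovl6, the elongase that takes palmitate to stearate, held 10.25, 10.73 and 10.99 in FXR-/- vehicle livers, against 9.26, 10.03 and 10.23 in wild-type vehicle livers. The groups did not overlap and it rose by 0.80 ± 0.15 (limma adjusted p = 1.62e-04). With OCA it had 10.41, 10.80 and 10.95 in FXR-/- livers and 9.99, 10.28 and 10.70 in wild-type livers, a rise of 0.46 ± 0.15 (limma adjusted p = 0.0183). Here 5 of 6 FXR-/- arrays lay above every wild-type one. The call was lost without wild-type OCA replicate 4 (0.40, limma adjusted p = 0.0503) and without the 4 arrays whose names end in _2 (0.39, limma adjusted p = 0.193).

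Me1, the cytosolic malic enzyme, separated the genotypes under both treatments. FXR-/- vehicle livers had 11.43, 11.74 and 11.95, against 10.79, 10.93 and 11.26 in wild-type vehicle livers, a rise of 0.74 ± 0.13 (limma adjusted p = 5.84e-05). FXR-/- OCA livers had 11.47, 11.75 and 12.07, against 10.53, 10.95 and 11.42 in wild-type OCA livers, a rise of 0.75 ± 0.13 (limma adjusted p = 3.96e-05). These were the lowest adjusted p-values of the set in either comparison. The other Me1 probe set had means of 11.63 in both FXR-/- groups, against 10.87 in wild-type OCA and 10.89 in wild-type vehicle livers.

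Pnpla3 was the dimmest of the set, with a mean signal at the 48.7th percentile of all genes. It had 5.01, 5.39 and 5.50 in FXR-/- vehicle livers and 4.34, 4.53 and 4.98 in wild-type vehicle livers. All FXR-/- values lay above all wild-type ones, narrowly (lowest 5.007 against highest 4.979), and the rise was 0.75 ± 0.18 (limma adjusted p = 0.00255). The wild-type vehicle mean of 4.59 lay within the span of the array medians, 4.57 to 4.65, so the size of this rise is not well resolved. Under OCA the FXR-/- livers held 5.49, 5.56 and 5.93, while wild-type livers spread from 4.17 through 4.88 to 5.72. The rise of 0.63 ± 0.18 passed (limma adjusted p = 0.00900), although only 2 FXR-/- arrays lay above all wild-type ones.

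Acly and Scd1, at the entry and the end of the pathway, gave no call between genotypes. Acly had 9.50, 10.03 and 10.45 in FXR-/- vehicle livers against 9.41, 10.04 and 10.22 in wild-type vehicle livers, a difference of 0.09 with a 95% interval from -0.25 to 0.42. Under OCA the difference was -0.16, with an interval from -0.50 to 0.18. Scd1 averaged 13.08 ± 0.05 in FXR-/- vehicle livers and 13.01 ± 0.06 in wild-type vehicle livers (SD, n = 6 each), a difference of 0.06 with an interval from -0.05 to 0.17. Its mean signal stood at the 99.96th percentile of all genes, close to the highest value in the table (13.60), and its spread within groups was lower than that of all but 3.39% of genes. Whether the array can still resolve differences at that brightness was not tested.

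In the vehicle comparison, 5 of the 10 genes had groups that did not overlap, all of them higher in FXR-/- liver, where 15.1% of all genes were free of overlap in either direction. In the OCA comparison Me1 did so above and Srebf1 and Mlxipl below, beside 18.4% of all genes. The counts of calls in FXR-/- OCA livers against wild-type OCA livers were 3 higher (Elovl6, Me1 and Pnpla3) and 3 lower (Thrsp, Srebf1 and Mlxipl), beside 17.4% and 13.3% of all genes. Centring each array on its own median moved the median of all genes by -0.17 under vehicle and by -0.19 under OCA. All 8 calls under vehicle passed with that centring too, whereas under OCA Elovl6 lost its call (0.27, limma adjusted p = 0.107) and Scd1 turned to a lower value that passed (-0.13, limma adjusted p = 0.0449).

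**Figure D2:**
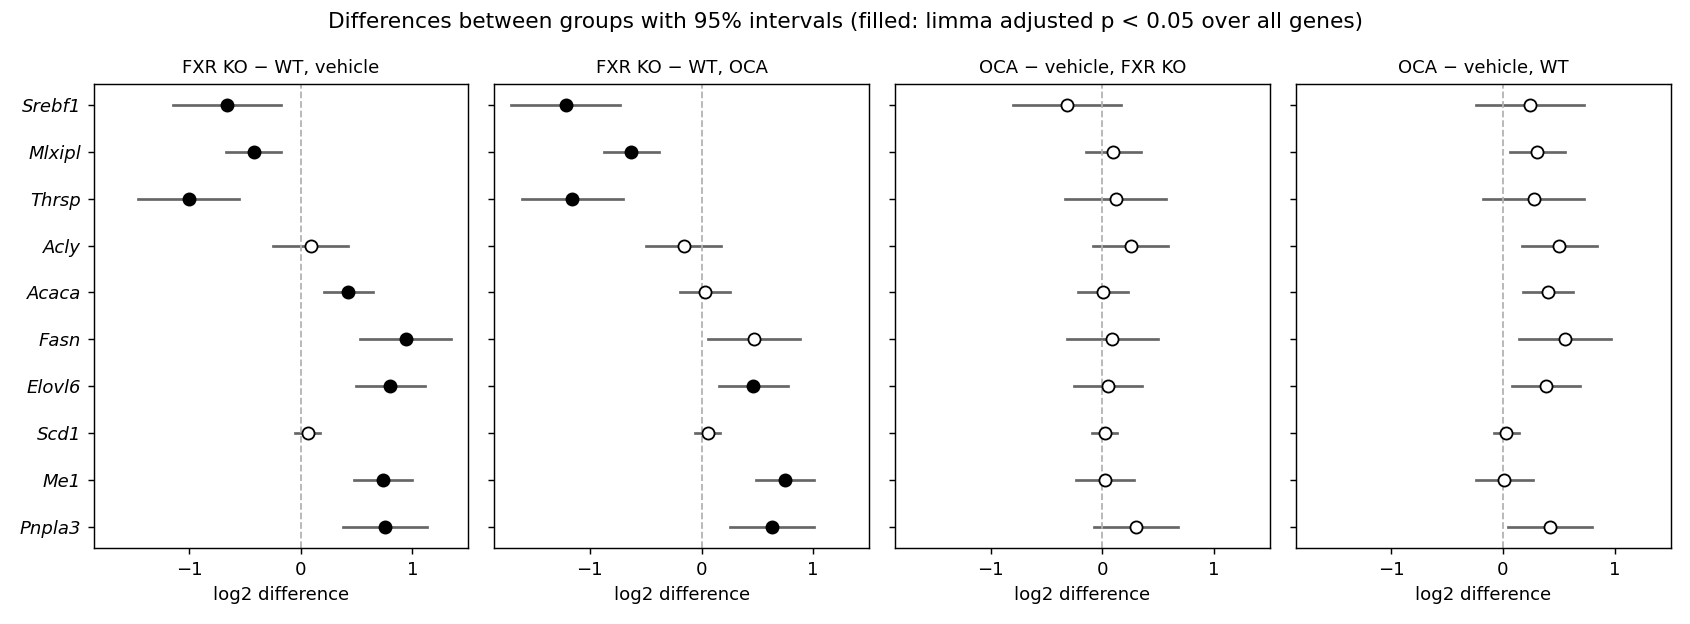
Log2 differences of the 10 genes in each comparison, with 95% intervals from limma as bars; filled points have an adjusted p below 0.05 and open points do not. In FXR-/- against wild-type livers, 5 points lie filled above 0 and 3 below under vehicle, and 3 above and 3 below under OCA. Neither comparison of OCA with vehicle has a filled point.

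All FXR-/- OCA arrays carry code number 9 and all wild-type OCA arrays number 5, so number and genotype cannot be told apart among them. They are linked through the vehicle arrays alone, and a fit with the number as a block left 0 genes called higher and 2 lower (Srebf1 -1.78, limma adjusted p = 0.0184; Mlxipl -1.38, limma adjusted p = 2.31e-04). In that fit Elovl6 turned to -0.34 (limma adjusted p = 0.50), and Me1 at 0.90 (limma adjusted p = 0.0535), Thrsp at -1.35 (limma adjusted p = 0.108) and Pnpla3 at 0.87 (limma adjusted p = 0.212) kept their sign but not their call. With replicate 6 of the wild-type vehicle group left out of that fit, Me1 (1.09, limma adjusted p = 0.0436), Thrsp (-1.97, limma adjusted p = 0.0243) and Mlxipl (-0.97, limma adjusted p = 9.43e-04) passed and Srebf1 did not (-1.49, limma adjusted p = 0.0957). Under vehicle the same block kept 4 higher and 3 lower calls, with Acaca lost (0.31, limma adjusted p = 0.0889).

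**Figure D3:**
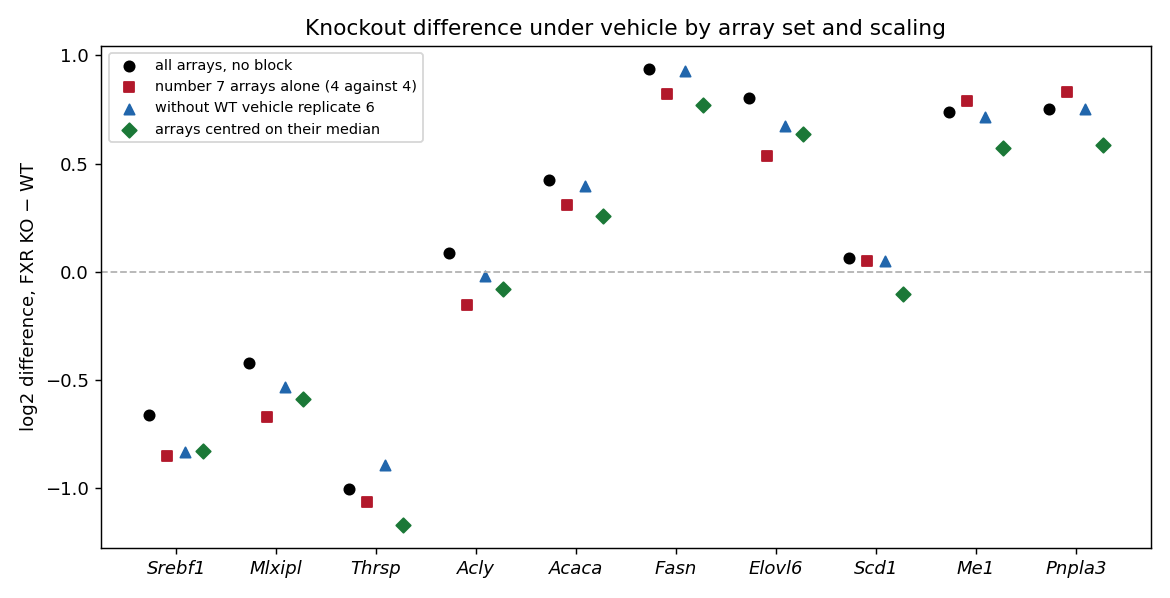
Log2 differences of the 10 genes between FXR-/- and wild-type livers under vehicle, in all arrays (circles), in the code number 7 arrays alone (squares), without wild-type vehicle replicate 6 (triangles) and with each array centred on its median (diamonds). Srebf1, Mlxipl and Thrsp lie below 0 and Acaca, Fasn, Elovl6, Me1 and Pnpla3 above 0 in all 4 settings. Acly changes side, at 0.09 in all arrays and -0.15 in number 7 alone, and so does Scd1, at 0.06 in all arrays and -0.10 with centring.

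Markers of other cell types differed with genotype as well. Their counts stand beside 15.4% of all genes called higher and 12.1% lower under vehicle, and 17.4% and 13.3% under OCA. In FXR-/- vehicle against wild-type vehicle livers, 7 of 10 Kupffer cell and macrophage markers rose and none fell, and their mean level ranged from 8.47 to 8.76 in FXR-/- livers and from 7.47 to 8.59 in wild-type livers. Wild-type replicates 5 and 6, both of code number 5, stood at 8.28 and 8.59, and the other wild-type arrays at 7.93 or lower. Of 7 stellate cell markers 6 rose, with mean levels from 8.06 to 8.31 in FXR-/- livers and from 7.22 to 7.55 in wild-type livers. Of 8 hepatocyte markers 3 fell and none rose, with mean levels from 12.46 to 12.58 in FXR-/- livers and from 12.67 to 12.82 in wild-type livers. Of 8 sinusoidal endothelial markers 2 fell and none rose, and of 5 cholangiocyte markers 2 rose and none fell.

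Adipocyte markers, which could bring in lipogenic transcripts from outside the liver, rose for 1 of 5 genes under vehicle, Fabp4 (0.57 ± 0.20, limma adjusted p = 0.0332), which macrophages also express. Their mean level ranged from 3.95 to 4.21 in FXR-/- vehicle livers and from 3.80 to 4.94 in wild-type vehicle livers. The 4.94 came from wild-type replicate 5 alone, and the next highest wild-type value was 3.98. That array is 1 of the 2 wild-type vehicle arrays of code number 5. Over the 24 arrays the fat cell hormone Adipoq averaged 2.83, at the 15.3rd percentile of all genes, Lep stood at the 27.3rd and the droplet protein Plin1 at the 38.6th, while Fabp4 stood at the 54.9th.

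Among OCA-treated livers, FXR-/- against wild type, 8 of 10 Kupffer cell and macrophage markers rose, with mean levels from 8.52 to 9.54 in FXR-/- livers and from 7.28 to 8.79 in wild-type livers. The tops came from FXR-/- replicate 3 and wild-type replicate 6, with the other arrays of those groups at most 8.61 and 7.71. All 7 stellate cell markers rose, with mean levels from 8.06 to 8.36 in FXR-/- livers and from 7.21 to 7.53 in wild-type livers. Of the hepatocyte markers 7 of 8 fell, with mean levels from 12.41 to 12.60 in FXR-/- livers and from 12.71 to 12.81 in wild-type livers. In the same comparison 2 of 8 sinusoidal endothelial markers rose, 0 of 5 cholangiocyte markers were called by limma, none of them at an unadjusted p below 0.05, and 2 of 5 adipocyte markers rose, Fabp4 (1.06) and Retn (0.94). The part of these cell types in the differences of the 10 genes was not tested.

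OCA changed none of the 10 genes past the threshold in either genotype. In FXR-/- livers 0 of 10 were called by limma against 0.0159% of all genes, 0 had an unadjusted p below 0.05, beside 5.14% of all genes, and the changes ran from -0.32 for Srebf1 to 0.30 for Pnpla3. Their widest 95% interval belonged to Srebf1, from -0.80 to 0.17. In wild-type livers 0 of 10 were called by limma as well, against 0.0691% of all genes, but all 10 changes were positive, with a median of 0.35 beside a median of -0.002 over all genes. In this comparison 6 of the 10 had an unadjusted p below 0.05, beside 9.47% of all genes, and the lowest limma adjusted p was 0.157, for Acaca. In the same comparison all 10 Kupffer cell and macrophage markers had negative changes (median -0.26), as had all 8 sinusoidal endothelial markers (median -0.28), with none called by limma in either list, although 1 of the 10 and 4 of the 8 had an unadjusted p below 0.05. Among wild-type vehicle livers, replicates 5 and 6 had the highest mean levels of both lists. For the macrophage markers they had 8.28 and 8.59, and the others at most 7.93. For the endothelial markers they had 8.51 and 8.62, and the others at most 8.37. Among wild-type OCA livers, replicate 6 had a macrophage mean of 8.79 and the others at most 7.71. Of the 7 stellate markers limma called 1 lower, Rgs5 (-0.45). Their part in the result was not tested.

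For Acaca, wild-type OCA livers had 9.52, 9.73 and 10.10 against 9.15, 9.35 and 9.63 in wild-type vehicle livers, and 4 of 6 OCA arrays lay above every vehicle array. The change was 0.40 ± 0.11 (limma adjusted p = 0.157). Acly had 10.14, 10.36 and 10.95 in wild-type OCA livers against 9.41, 10.04 and 10.22 in wild-type vehicle livers, with 5 of 6 OCA arrays above every vehicle array and a change of 0.50 ± 0.16 (limma adjusted p = 0.264). The changes of Fasn (0.56 ± 0.20), Elovl6 (0.39 ± 0.15), Mlxipl (0.31 ± 0.12) and Pnpla3 (0.42 ± 0.18) had limma adjusted p-values between 0.336 and 0.470. Without wild-type vehicle replicate 6 the change of Mlxipl was 0.19, and without wild-type OCA replicate 2 that of Pnpla3 was 0.28. Me1 (0.01 ± 0.13) and Scd1 (0.03 ± 0.05) differed least between wild-type OCA and vehicle livers. With the code number as a block Acaca (0.59, limma adjusted p = 0.0285) and Elovl6 (0.83, limma adjusted p = 0.0104) passed, a fit in which only the vehicle arrays of replicates 5 and 6 share a number with the OCA arrays. Without replicate 6 neither passed in that fit (0.62, limma adjusted p = 0.174, and 0.63, limma adjusted p = 0.231).

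The OCA effect in FXR-/- livers minus that in wild-type livers was negative for 9 of 10 genes, with a median of -0.23, and limma called 0 of them, beside 0% of all genes. Of the 10 only Acaca had an unadjusted p below 0.05, as did 6.06% of all genes, at -0.40 ± 0.15 (limma adjusted p = 0.720). For Srebf1 the difference was -0.56, with a 95% interval from -1.25 to 0.13. The OCA and genotype comparisons share arrays, so their values are not independent of each other.

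Read across the 4 groups, Fasn was ordered from FXR-/- OCA (mean 11.13 ± 0.17) and FXR-/- vehicle (11.04 ± 0.24) to wild-type OCA (10.66 ± 0.54) and wild-type vehicle (10.10 ± 0.43; SD, n = 6 each). Elovl6 and Pnpla3 had the same order, and none of the 3 passed the test between its neighbouring FXR-/- groups, although 5 of 6 FXR-/- OCA arrays lay above every FXR-/- vehicle array for Pnpla3. Srebf1 was lowest in FXR-/- OCA (7.72 ± 0.22) and FXR-/- vehicle livers (8.03 ± 0.21), and higher in wild-type OCA (8.94 ± 0.57) and wild-type vehicle livers (8.70 ± 0.61). By their group means, Mlxipl and Thrsp were lowest in FXR-/- vehicle and highest in wild-type OCA livers. Neither passed the test between OCA and vehicle in either genotype, and in FXR-/- livers these differences were 0.10 and 0.12. Within code number 9 alone the Mlxipl difference between FXR-/- OCA and vehicle livers was -0.24, the other way. Acaca was nearly level in 3 groups, at 9.80 ± 0.17 in FXR-/- OCA, 9.80 ± 0.15 in FXR-/- vehicle and 9.77 ± 0.23 in wild-type OCA livers, and lower in wild-type vehicle livers at 9.37 ± 0.21 (SD, n = 6 each).

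Livers of 1 group also differed from each other along the pathway. After the group means were removed, the 45 pairs of genes had a median Pearson r of 0.44 over the 24 arrays (median Spearman rho 0.40), and 40 pairs were positive. The mean r was 0.40 among the 10 genes and 0.003 over pairs of all genes. The second value averages positive and negative pairs, so it does not give how often 10 genes reach 0.40. Acly with Elovl6 (0.80), Fasn with Acly (0.79), Fasn with Acaca (0.79) and Me1 with Pnpla3 (0.79) stood highest. Srebf1 varied with Fasn at 0.66 and with Acaca at 0.64. Mlxipl stood apart, with values from -0.44 (Thrsp) to 0.40 (Acly). Each array gives all genes of a pair, so these values also carry whatever the genes of an array share, and no test was made of them. Without replicate 6 of the wild-type vehicle group the median r was 0.47. The values of Mlxipl moved more with that array left out. Its r became 0.18 with Acly, -0.16 with Elovl6 (0.27 over all arrays), -0.40 with Srebf1 (0.03 over all arrays) and -0.33 with Thrsp. With the mean of each group and code number removed instead, the median r over all arrays was 0.48. Mlxipl then had -0.66 with Thrsp, 0.18 with Acly and 0.01 with Elovl6.

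**Figure D4:**
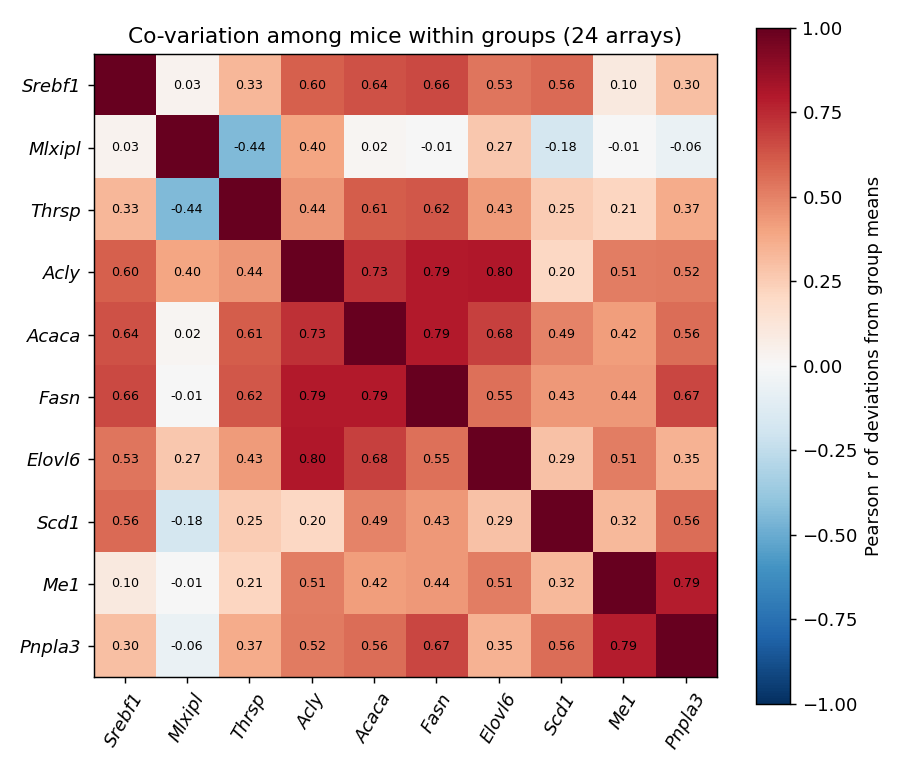
Pearson r between the 10 genes over 24 arrays, each value taken as its deviation from its group mean; red is positive, blue negative. The block of Acly, Acaca, Fasn and Elovl6 lies between 0.55 and 0.80, and the row of Mlxipl is pale apart from -0.44 with Thrsp and 0.40 with Acly.

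The same correlations were taken within each genotype. In the 12 FXR-/- arrays Srebf1 had an r of -0.03 with Fasn, -0.03 with Acly, -0.06 with Elovl6, 0.36 with Acaca, 0.44 with Scd1 and 0.04 with Me1. In the 12 wild-type arrays it had 0.77 with Fasn, 0.90 with Acly, 0.71 with Elovl6, 0.74 with Acaca, 0.60 with Scd1 and 0.12 with Me1. Fasn and Acly had 0.93 in FXR-/- and 0.82 in wild-type arrays. Scd1, at the top of the scale, lay between -0.53 (Elovl6) and 0.02 (Acaca) with the other enzymes in FXR-/- arrays, and between 0.60 and 0.69 in wild-type arrays. Srebf1 spread less in the FXR-/- OCA and vehicle groups (SD 0.22 and 0.21) than in the wild-type ones (0.57 and 0.61). The wild-type arrays also hold vehicle replicate 6. Over both genotypes, leaving it out moved the r of Srebf1 from 0.60 to 0.50 with Acly and from 0.53 to 0.37 with Elovl6. With Fasn it moved from 0.66 to 0.73, and with Acaca from 0.64 to 0.63. With the mean of each group and code number removed, Srebf1 had 0.66 with Acly, 0.38 with Elovl6, 0.76 with Fasn and 0.60 with Acaca. The differences between genotypes in these correlations were not tested.

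Beyond the 10 genes, 8 others followed their mean deviation most closely over the 24 arrays: Cpped1 (r = 0.85), Pklr (0.84), Pdk1 (0.84), Inmt (0.83), Mast3 (0.82), Cyp2b9 (0.80), Homer2 (0.80) and Enpep (0.79). Pklr, liver pyruvate kinase, is a glycolytic enzyme, and Pdk1 restrains the entry of pyruvate into the mitochondrial cycle. The same 8 led without replicate 6 of the wild-type vehicle group.

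Other genes of the pathway were counted in 4 lists. Over all genes, 15.4% were called higher and 12.1% lower in FXR-/- liver under vehicle, and 17.4% and 13.3% under OCA. Of 17 further enzymes of fatty acid synthesis and desaturation measured, 6 rose and 2 fell in FXR-/- vehicle against wild-type vehicle livers, with a median of 0.13. Scd2, a desaturase known mainly from other tissues, rose by 1.03 ± 0.12 (limma adjusted p = 3.35e-07), and Acsl4 (0.84), Elovl1 (0.73), Acsl5 (0.55), Hacd3 (0.45) and Hsd17b12 (0.22) rose with it. Elovl3, an elongase of very long saturated and monounsaturated chains, averaged 3.40 ± 0.36 in FXR-/- vehicle livers and 10.89 ± 0.76 in wild-type vehicle livers (SD, n = 6 each), a fall of 7.48 ± 0.29 (limma adjusted p = 6.01e-16). Its FXR-/- signals lay below the array medians, and no detection calls were used, so the size of this fall is not resolved at the dim end. Elovl2, which lengthens polyunsaturated chains, fell by 0.55 ± 0.07 (limma adjusted p = 3.95e-07). Under OCA the counts in FXR-/- against wild-type livers were 8 and 3, with Elovl3 again below the array medians in FXR-/- livers (3.40 ± 0.50, against 10.41 ± 0.52 in wild-type livers) and Scd2 at 1.43, and Oxsm, Mcat and Mecr of the mitochondrial pathway joined at 0.20, 0.20 and -0.18.

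Supply of acetyl-CoA and NADPH gave 6 higher and 1 lower of 13 under vehicle, and 7 and 1 under OCA. Pgd, of the pentose phosphate pathway, rose by 1.37 ± 0.08 in FXR-/- vehicle livers (limma adjusted p = 9.17e-13). Acss2, which makes acetyl-CoA from acetate, rose by 0.84 ± 0.19. Tkt (0.76), also of the pentose phosphate pathway, citrate synthase Cs (0.69), Acss1 (0.52) and Dlat (0.45) rose too, while the cytosolic malate dehydrogenase Mdh1 fell by 0.30. Acss1 averaged 4.31 in FXR-/- vehicle and 3.79 in wild-type vehicle livers, both below the array medians, so the size of its rise is not resolved. Idh1 was the further gene called under OCA, at 0.17. Pklr did not pass in either comparison.

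Glyceride synthesis and storage gave 7 higher and 2 lower of 13 under both treatments. Mogat1 (3.31 ± 0.19) and Mogat2 (2.19 ± 0.14), which acylate monoglycerides, and Cidec (2.33 ± 0.30) and Fitm1 (1.22 ± 0.11), which act in lipid droplet formation, led the list in FXR-/- vehicle livers, with limma adjusted p-values up to 9.72e-07. Mogat1 averaged 6.68 ± 0.11 in FXR-/- livers and 3.37 ± 0.21 in wild-type livers, and Mogat2 6.54 ± 0.18 in FXR-/- livers and 4.35 ± 0.31 in wild-type livers (SD, n = 6 each). The wild-type means lay below the array medians, so the sizes of these 2 rises are not resolved either. Gpam (0.46), Plin2 (0.31) and Agpat3 (0.22) rose with them. Lpin1, a phosphatidate phosphatase, fell by 0.92 ± 0.27 and Agpat2 by 0.44 ± 0.09. Under OCA Dgat1 passed at 0.23 and Plin2 did not pass. Between OCA and vehicle this list gave 2 calls. Fitm1 was at -0.58 ± 0.11 in wild-type livers (limma adjusted p = 0.0411), beside 0.0691% of all genes called. Mogat2 was at -0.90 ± 0.14 in FXR-/- livers (limma adjusted p = 0.0119), beside 0.0159% of all genes. In each genotype 4 vehicle arrays carry code number 7, which no OCA array does. Values of these 2 genes with the number as a block were not taken.

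Of 27 genes measured that control SREBP-1c and ChREBP, 1 rose and 6 fell under vehicle, and 3 rose and 9 fell under OCA, beside the shares of all genes given above. Insig1, which holds SREBP precursors in the endoplasmic reticulum, rose by 0.79 ± 0.19 in FXR-/- vehicle livers (limma adjusted p = 0.00213). Nr0b2 (-2.62, with FXR-/- means below the array medians), the AMP kinase subunit Prkab1 (-0.56), the E-box factor Usf2 (-0.28), Rxra (-0.22), which pairs with LXR, Nfyc (-0.17), a subunit of the factor that binds CCAAT, and Mbtps1 (-0.15), the protease that first cuts SREBP, fell. Among OCA-treated livers Insig2 (0.92) and Nfyb (0.35) also rose, and Mid1ip1, the partner of Thrsp, fell by 1.04 ± 0.25 (limma adjusted p = 0.00207), with Ppargc1b (-0.52), Usf1 (-0.30) and Akt2 (-0.19). The only call between OCA and vehicle in this list was Nr0b2 in wild-type livers, at 1.41 ± 0.25 (limma adjusted p = 0.0244), beside 0.0691% of all genes.

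**Figure D5:**
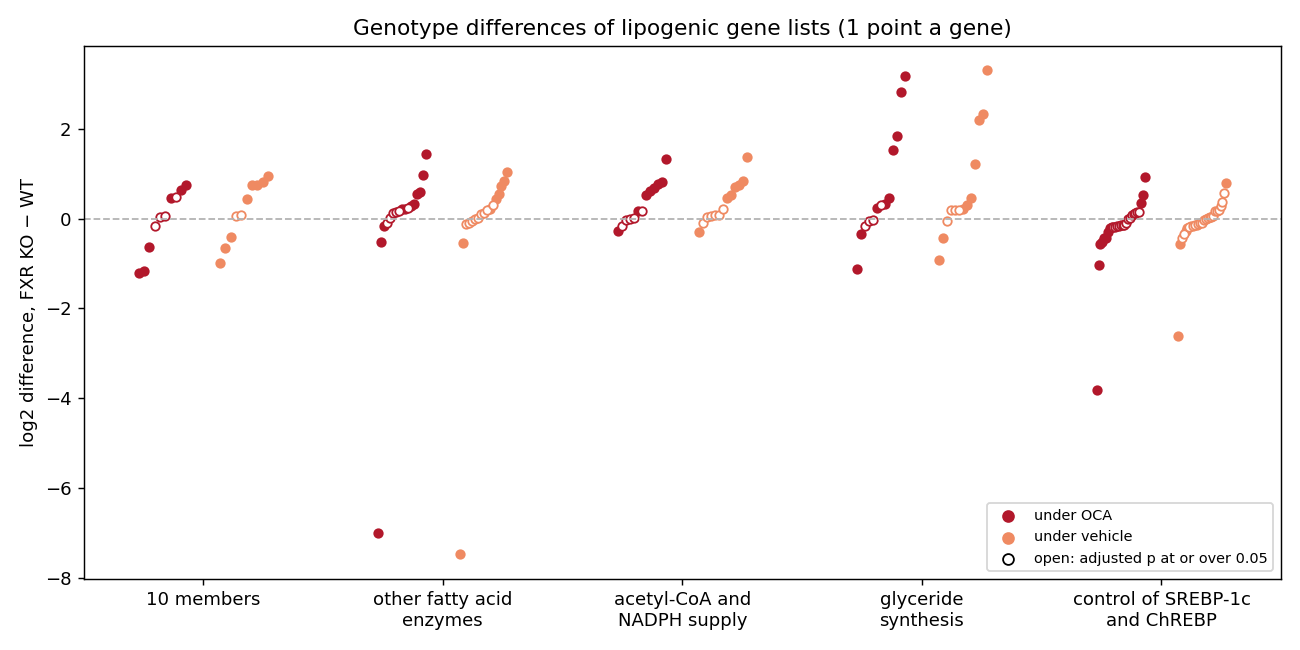
Log2 differences between FXR-/- and wild-type livers for the 10 genes and 4 related lists, 1 point a gene, under OCA (dark) and under vehicle (light); filled points have an adjusted p below 0.05. The lowest points are Elovl3, at -7.01 under OCA and -7.48 under vehicle, and the highest are Mogat1, at 3.18 under OCA and 3.31 under vehicle; in both genes the dimmer genotype lay below the array medians, so these sizes are not resolved.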

How the data were processed

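Liver RNA of 24 mice was measured on whole-transcript arrays, 1 per mouse. The deposited log2 expression values were obtained by the authors with RMA, per the submitters' processing notes; neither its version nor the base of the logarithm was stated, and log2 was inferred from values between 0.87 and 13.6. The table held 35556 probe sets, of which 21218 had 1 gene symbol, 1881 had several and 12457 were not listed. The probe set with the highest mean was kept per gene, which left 18820 genes; Acaca and Me1 had 2 probe sets each, and the 10 genes had 12 in all. No detection calls were used, so dim signals such as that of Pnpla3 may include background, and the number of arrays limits the precision.

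Groups were taken from the labels. limma 3.58.1 under R 4.3.3 fitted a means model with 4 groups to all arrays, followed by eBayes, with Benjamini-Hochberg adjustment across the 18820 genes. Contrasts were OCA against vehicle in each genotype, FXR-/- against wild type under each treatment, and the difference of the OCA effects. Values are mean ± SD or log2 change ± SE. Correlations used deviations from group means and carry no test. The fits were tested on simulated data. Promoter windows were read from a RefSeq table of GRCm38.p6, and plots were made in Python 3.11.15 with matplotlib 3.10.9.

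The text names the 10 genes, in each list the genes called (those with the smallest p otherwise, up to 3), the 8 genes most like the set, and Nr0b2. The 10 genes, the lists and the tests were chosen with earlier results of these data known. Alternatives were array centring, quantile normalization, a filter at the median signal, weights for arrays, robust eBayes with a trend, a fit on the compared groups alone, blocks on the array code number, its letter or the replicate number, 1 code number alone, leaving out 4 arrays whose names end in _2, all probe sets, the mean of a gene's probe sets, and each array left out in turn. Replicate numbers were not treated as pairs in the main fits. Deviations of same-numbered arrays correlated between -0.05 and 0.17 over 24 pairs, which cannot show whether the mice were paired.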

Additional observations from a re-analysis of the deposited data

Results flagged for a closer look

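In 40 sets of 6 arrays (10 genes in 4 groups), 2 arrays lay far from their group mates; chance marks about 1 group in 20 by this measure. Pnpla3 was 5.01 in replicate 6 of the FXR-/- vehicle group, where the nearest value was 5.36, a gap of 0.711 of the group's range. Without it the rise of Pnpla3 in FXR-/- vehicle livers kept its call. Mlxipl was 9.72 in replicate 6 of the wild-type vehicle group, where the nearest value was 10.28, a gap of 0.683 of the range. That array is the one that stood apart over all genes, and the fall of Mlxipl in FXR-/- livers kept its call without it.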

How the results depend on the processing

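Of 364 alternative fits of the 14 called changes, 341 kept sign and call, 21 lost the call and 2 reversed, and where a value moved the cause was not tested. Fasn, Elovl6, Me1, Thrsp, Mlxipl and Pnpla3 stayed called under vehicle in every alternative that gave a value; Pnpla3 fell out of the filter at the median signal. Blocking on the array code number, 2 of the 10 genes were called higher with OCA in wild-type livers. In that fit 0 of them were called higher in FXR-/- against wild-type livers under OCA (median of the 10 changes -0.33), and the median difference of OCA effects was -0.67. Leaving replicate 6 of the wild-type vehicle group out of that block gave 1 higher under OCA, a median of -0.25 there and a median difference of -0.54. Among the 10 genes, the replicate block kept 5 higher and 3 lower calls under vehicle and 3 and 3 under OCA, and changed no other call. In the pairing by replicate number, 2 of 24 arrays correlated best with their own number.

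Values that reversed were mostly close to 0. For OCA in wild-type livers, Me1 turned to -0.065 under the number block and within number 5, to -0.25 under the block without replicate 6 and to -0.0035 with probe sets averaged. For OCA in FXR-/- livers, the number block, with or without replicate 6, and number 9 alone turned Fasn to -0.051, Acaca to -0.041, Elovl6 to -0.043 and Mlxipl to -0.24, and Acaca was -0.0027 with array centring and -0.0082 with probe sets averaged. For genotype under vehicle, Acly turned to -0.079 with centring, -0.021 with array weights, -0.15 under the number block with or without replicate 6 and within number 7, and -0.028 without the wild-type vehicle arrays of number 5, a setting chosen after seeing the data, and Scd1 turned to -0.10 with centring. For genotype under OCA, Acaca turned to -0.16 with centring, -0.013 with quantile normalization, -0.019 with probe sets averaged, -0.32 under the number block and -0.35 under it without replicate 6. Elovl6 turned to -0.34 and -0.14 under those 2 blocks, Scd1 to -0.13 with centring and Acly to 0.0038 with the code letter as a block. For the difference of OCA effects, Pnpla3 turned to 0.041 under the number block and 0.24 under it without replicate 6, Thrsp to 0.10 and Scd1 to 0.0067 with the letter block, Scd1 to 0.023 with quantile normalization and 0.026 without the arrays ending in _2, and Me1 to -0.011 with centring.

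Leaving out 1 array at a time reversed small changes: the range was -0.069 to 0.11 for Me1 and OCA in wild-type livers. For OCA in FXR-/- livers it was -0.037 to 0.051 for Acaca, -0.036 to 0.085 for Me1, -0.013 to 0.23 for Thrsp and -0.041 to 0.12 for Elovl6. It was -0.017 to 0.19 for Acly between genotypes under vehicle and -0.022 to 0.095 for Acaca under OCA. For the difference of OCA effects it was -0.080 to 0.097 for Me1, -0.032 to 0.023 for Scd1 and -0.29 to 0.023 for Pnpla3. No code number holds both genotypes under OCA, so neither that comparison nor the difference of effects had a value within 1 number.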

Other observations

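Among wild-type OCA livers, replicate 2 lay above the mean of its 5 group mates for 9 of the 10 genes, with Fasn at a difference of 1.02 on the log2 scale, whereas replicate 6 lay below it for all 10, with Pnpla3 at -1.01. Among wild-type vehicle livers, replicate 6 lay below the mean of its group mates for 9 of the 10 genes, with Srebf1 at -1.04, while its Thrsp difference was 0.65. In FXR-/- livers no array lay more than 2-fold from the mean of its group mates for any of the 10 genes.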
